A study of Mus musculus with 6 samples.

Results

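Glycolysis and HIF-responsive genes were described here in bulk RNA-seq of primary mouse myoblasts. The set held 39 genes of the 54532 in the count table, chosen by gene symbol as the enzymes, transporters and regulators of glycolysis together with the oxygen-sensing arm of HIF (hypoxia-inducible factor) and some of its well-known targets. The 39 symbols covered 40 rows, because Aldoa was listed under the main locus ENSMUSG00000030695 and under a minor locus ENSMUSG00000114515. Of these rows 39 had enough counts to be tested, and Aldoc, with 1.1 CPM or less in every library (CPM, read counts scaled to a common library total by edgeR's TMM factors), was not.

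The study asked how eIF5A, a translation factor that carries the spermidine-derived residue hypusine, acts in muscle stem (satellite) cells. Mononuclear cells were released by dispase and collagenase from hind-limb muscle of 3-week-old mice, grown in DMEM with 10% fetal bovine serum and FGF, and taken for total RNA on day 2 as proliferating primary myoblasts. There were 3 libraries labelled WT and 3 labelled eIF5A-KO, written below as WT and KO with the replicate number of the label. In the study, KO mice carried Pax7-CreERT2 and eIF5A f/f, so that tamoxifen deletes eIF5A only in cells that express Pax7, and the control is given in one place as Pax7-CreERT2/+ mice and in another as Pax7+/+;eIF5A f/f mice. The study took its myoblasts for translational profiling from tamoxifen-induced KO mice and WT littermates, and calls the bulk RNA-seq triplicate experiments. Which control genotype gave the cells sequenced, when tamoxifen was given, and whether each library came from a separate mouse are not given in the sources used here, so p-values measure only the spread between these libraries.

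Glycolysis splits glucose to pyruvate in the cytosol and yields ATP without oxygen. Hexokinases and phosphofructokinases spend ATP in the early steps, aldolase and triose phosphate isomerase yield the triose phosphates, and the later steps from GAPDH to pyruvate kinase return ATP and NADH. Lactate dehydrogenase regenerates NAD+ and monocarboxylate transporters carry lactate across the membrane. HIF-1α is hydroxylated by the EGLN prolyl hydroxylases and degraded when oxygen is present. When stable it pairs with ARNT and raises the transcription of many glycolytic genes. Satellite cells are known to turn towards glycolysis when they leave quiescence, and mature muscle fibres use dedicated isozymes such as β-enolase (Eno3), muscle phosphofructokinase (Pfkm) and muscle phosphoglycerate mutase (Pgam2).

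HIF binds DNA at the core letters ACGTG or GCGTG, so the bases before the start sites were read for these letters on both strands. The 250 bases before each RefSeq start (GRCm38.p6) were found for 37 of the 39 genes, in 57 windows. ACGTG stood in 43.9% of these windows, against 16.6% of all 32851 windows of the same length. GCGTG stood in 52.6% against 28.2%, and either in 75.4% against 38.6%. The longer letters CACGTG, an E-box that holds ACGTG on both strands and is also read by MYC and USF proteins, stood in 14% against 6.02%. Windows of the same gene can overlap and count the same match, as for Aldoa and Eno1. The set of all windows was not matched for base composition. A match is a description of the letters and not evidence of binding. Below are the windows of the pair of genes with the lowest p-values, Slc16a1 and Eno3, and of Ldha and Pgk1, which are textbook HIF targets. Ldha had 2 windows, of which the one with more matches is shown. They are written 5′ to 3′ on the strand of the gene, with ACGTG and GCGTG and their reverse complements in capitals.
Slc16a1 (chr3:104638414-104638663, + strand): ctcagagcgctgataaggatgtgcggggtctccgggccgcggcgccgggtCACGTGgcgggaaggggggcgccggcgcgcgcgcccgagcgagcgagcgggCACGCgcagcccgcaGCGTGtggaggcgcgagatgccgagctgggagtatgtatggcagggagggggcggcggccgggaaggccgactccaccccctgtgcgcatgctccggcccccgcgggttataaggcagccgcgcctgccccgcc
Eno3 (chr11:70656926-70657175, + strand): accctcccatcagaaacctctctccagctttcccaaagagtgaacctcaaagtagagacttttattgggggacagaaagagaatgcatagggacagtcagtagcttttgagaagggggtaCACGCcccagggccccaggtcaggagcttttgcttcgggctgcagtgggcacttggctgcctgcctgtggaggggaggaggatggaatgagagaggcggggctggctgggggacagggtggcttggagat
Ldha (chr7:46845554-46845803, + strand): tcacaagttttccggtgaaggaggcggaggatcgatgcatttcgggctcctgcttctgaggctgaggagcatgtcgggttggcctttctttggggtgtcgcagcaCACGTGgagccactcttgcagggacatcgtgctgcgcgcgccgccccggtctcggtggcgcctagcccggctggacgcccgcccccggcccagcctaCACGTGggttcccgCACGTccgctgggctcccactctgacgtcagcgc
Pgk1 (chrX:106186850-106187099, + strand): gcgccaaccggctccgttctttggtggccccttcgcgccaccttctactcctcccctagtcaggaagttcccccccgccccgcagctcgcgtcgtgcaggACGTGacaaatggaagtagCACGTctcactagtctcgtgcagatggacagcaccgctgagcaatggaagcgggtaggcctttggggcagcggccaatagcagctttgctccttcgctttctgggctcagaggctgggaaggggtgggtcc
The Ldha window shown held 5 matches to ACGTG, from 2 CACGTG that each count on both strands and 1 further match, while the other Ldha window (chr7:46846832-46847081) held 0 of ACGTG and 1 of GCGTG. The Pgk1 window held 2 matches to ACGTG. The Slc16a1 window held 2 of ACGTG, as 1 CACGTG, and 2 of GCGTG, while the Eno3 window held a single GCGTG and no ACGTG.

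The knockout label was first checked on the targeted gene. Eif5a measured 1600, 985 and 1237 CPM in the WT libraries and 1363, 1457 and 1058 CPM in the KO libraries. The groups overlapped, and the log2 fold change (KO minus WT throughout) was 0.02 ± 0.23 (SE, 3 libraries a group; adjusted p = 0.993 in edgeR's quasi-likelihood test). No lower level of the targeted transcript was therefore seen in the libraries labelled KO, and directions below refer to those labels. The 95% interval of this log2 fold change, -0.51 to 0.55, leaves room for a decrease or an increase. The deletion itself and the eIF5A protein were not measured in these libraries. For satellite cells, the study reports knockout efficiency by RT-qPCR and immunofluorescence, and states that the knockout mice were successfully established. Markers of satellite cells and myoblasts were present, with Myod1 at 195 to 549 CPM and Des at 189 to 438 CPM, but Pax7 reached only 8.28 to 51.6 CPM. The endothelial gene Cdh5 stood at 243 to 818 CPM and the fibroblast gene Dcn at 627 to 1540 CPM, so the libraries also held RNA of these cell types. The deletion is meant for cells that express Pax7, and the part of other cell types in the Eif5a level was not tested. Library totals were 16281216 to 17734551 counts. Genes encoded on mitochondrial DNA took 5.75% of the counts in WT 1, 3.50% in KO 2 and 2.11% to 2.74% in the other 4 libraries.

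As a set, the glycolysis and HIF-responsive genes differed between the groups about as much as all genes tested. Their median absolute log2 fold change was 0.17, beside 0.19 over all genes. None of the 39 rows tested passed an adjusted p (Benjamini-Hochberg over 14679 genes) of 0.05 in edgeR, against 0.0204% of all genes tested. DESeq2 called 1, Eno3, and 0.627% of all genes, the edgeR fit without a filter on low counts called 2, Eno3 and Gapdh, and 0.924% of all genes, and limma called 0. At an unadjusted p under 0.05, 0 were higher in KO, against 2.74% of all genes, and 2 were lower, Eno3 and Slc16a1. These 2 made 5.13% of the rows, close to the background of 4.02%. By the criterion of the study, over 2-fold with unadjusted p under 0.05, 0 were higher and 0 were lower, against 0.531% and 1.32% of all genes. Every KO library stood above every WT library for 3 genes, or 7.69%, against 5.68% of all genes, and below for 3, against 6.83%. The median log2 fold change was 0.09, beside -0.01 over all genes, and it was -0.03 without WT replicate 3 and 0.16 without WT replicate 1. Of the rows 21 were above 0 and 18 below, and of all genes tested 7097 and 7582. In 24 of 39 rows the group means differed by less than 1 pooled SD, a count that was not taken over all genes.

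**Figure D1:**
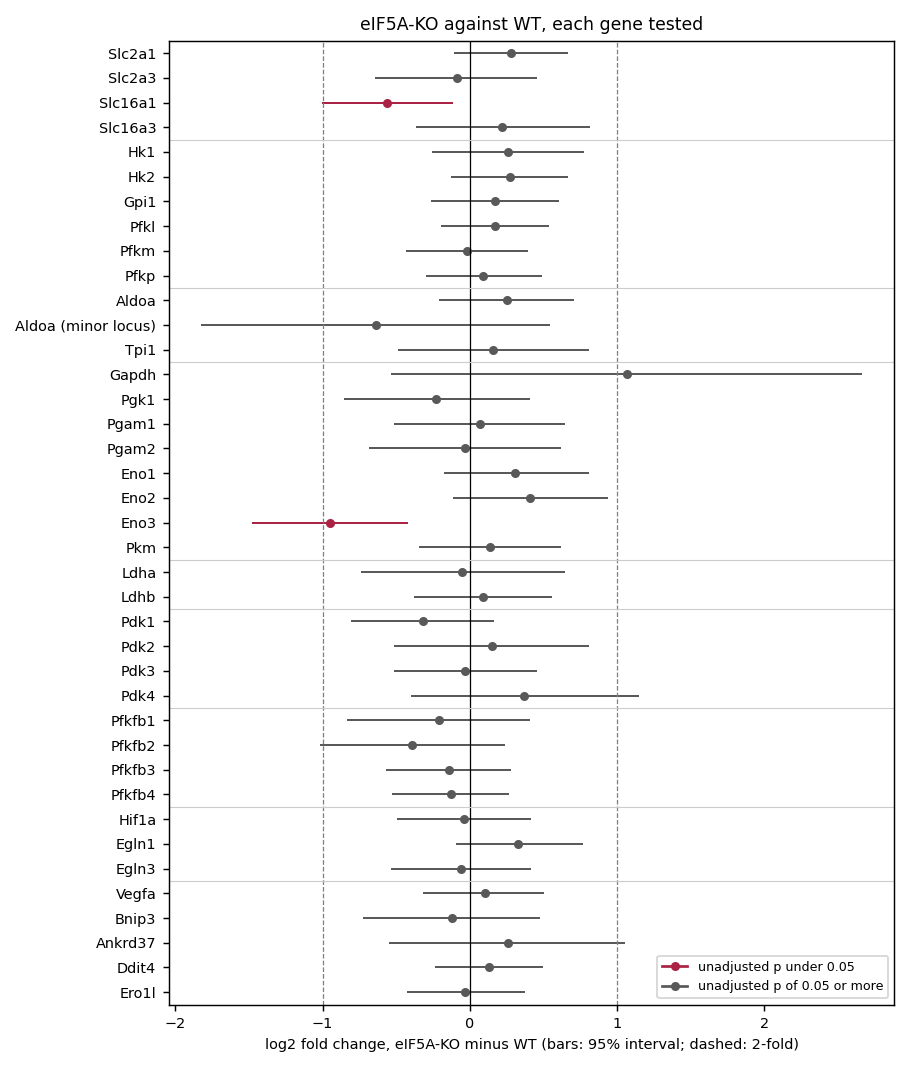
The log2 fold change of each row tested (points, KO minus WT) is drawn with its 95% interval (bars) from edgeR, in the order of the pathway, with dashed lines at 2-fold. Eno3 and Slc16a1 are the rows with unadjusted p under 0.05, and Gapdh has the widest interval, from -0.53 to 2.66.

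The intervals bound what these libraries allow. For 33 of the 39 rows the 95% interval lay within 2-fold in both directions, a count that was not taken over all genes. The 6 exceptions were Gapdh (-0.53 to 2.66), Eno3 (-1.47 to -0.43), Pdk4 (-0.39 to 1.14), Pfkfb2 (-1.01 to 0.23), Ankrd37 (-0.54 to 1.05) and the minor Aldoa locus (-1.82 to 0.54), all on the log2 scale. The interval lay wholly below 0 for Eno3 and Slc16a1 and included 0 for the other 37 rows, which does not show that those genes did not differ.

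Levels between genes were compared in FPKM, the unit of the authors that divides by gene length and by library depth. The most abundant rows were Ldha at 622 ± 265 FPKM in WT and 607 ± 117 in KO (SD, n = 3), Pgk1 at 598 ± 234 and 514 ± 71.1, and Pkm at 541 ± 71.6 and 598 ± 84.3. The spreads of these 3 genes overlapped, so their order is not settled. Aldoa (420 ± 34.0 and 502 ± 79.1 FPKM) and Eno1 (361 ± 58.1 and 452 ± 71.1 FPKM) had lower means in WT, but in KO they overlapped with Pgk1, and in KO 1 both were above it. Next came Pgam1 and Tpi1 at 218 to 245 FPKM as group means. At the other end, Pfkfb1 and Pfkfb2 had group means of 0.484 to 0.783 FPKM, and Aldoc 0.162 and 0.174 FPKM. The listed gene length equals the union of all annotated exons for 39 of the 40 rows (for Pgam1 it is 1831 bases against 1982), and is 4133 bases for Gapdh where the principal transcript has 1420, so such genes stand lower in FPKM than by their main transcript, and the order depends on it. With principal lengths, an alternative chosen after seeing the data, the share of Hk2 in its family moved from 19.6% to 10.6% in WT, that of Slc2a3 from 3.50% to 5.81% and that of Ldhb from 2.76% to 1.79%.

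**Figure D2:**
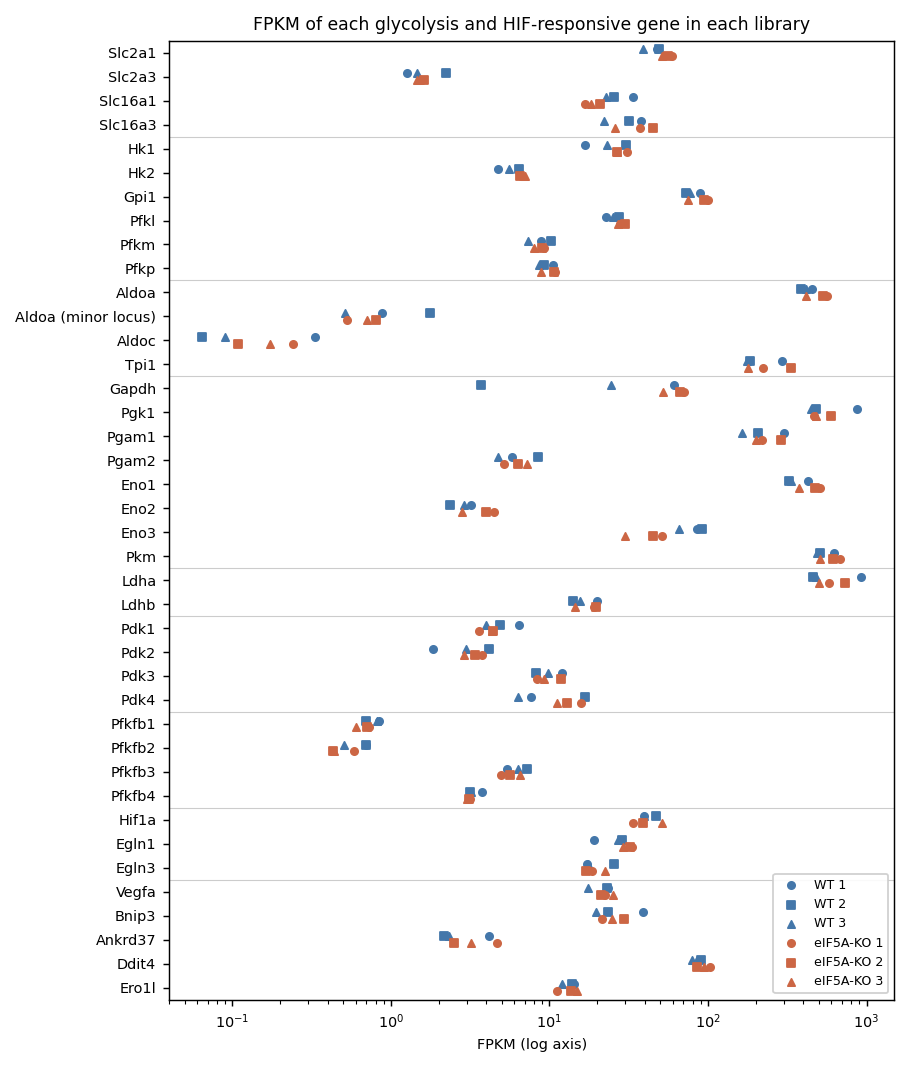
FPKM on a log axis is drawn for each row in each library (blue, WT; orange, KO; circle, square and triangle, replicates 1, 2 and 3). The genes span from Aldoc at under 1 FPKM to Ldha at up to 928 FPKM, and WT 2 stands far below the other libraries for Gapdh at 3.71 FPKM.

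Glucose enters through Slc2a1 (GLUT1), the main basal glucose transporter, at 171, 173 and 137 CPM in WT and 208, 197 and 179 CPM in KO. All KO libraries lay above all WT libraries, KO 3 only just above WT 2, and the log2 fold change was 0.28 ± 0.17 (edgeR adjusted p = 0.854). Slc2a3 (GLUT3), a high-affinity transporter, was scarce at 9.23 to 16.2 CPM, and made up 3.50% ± 0.895 of the summed FPKM of both transporters in WT and 2.73% ± 0.103 in KO.

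Lactate export uses both Slc16a1 (MCT1), which carries lactate and pyruvate in either direction, and Slc16a3 (MCT4), the low-affinity exporter known from glycolytic cells. Slc16a1 (ENSMUSG00000032902, chr3:104638668-104658462 of mm10) measured 152, 114 and 101 CPM in WT and 75.3, 92.4 and 81.6 CPM in KO. The groups did not overlap, and WT 1 was the highest library. Its log2 fold change was -0.56 ± 0.20, a ratio of KO to WT with a 95% interval of 0.502 to 0.923, and it was lower in 3 of 3 KO libraries. The edgeR adjusted p was 0.571, its unadjusted p was under 0.05, and over the alternatives the adjusted p ranged from 0.402 to 0.9998. Without WT replicate 1 it was -0.36 and without WT replicate 3 -0.68, and without KO replicate 1 or KO replicate 3 its unadjusted p was above 0.05. In bulk RNA, fewer cells of a type and less RNA per cell cannot be told apart. Slc16a3 measured 205, 170 and 118 CPM in WT and 199, 240 and 137 CPM in KO, and the groups overlapped (log2 fold change 0.22 ± 0.26).

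Set against each other, Slc16a1 made up 47.1%, 44.6% and 50.7% of the FPKM of this pair in WT and 31.3%, 31.7% and 41.7% in KO. The share was below every WT library in all 3 KO libraries, with means of 47.4% ± 3.05 and 34.9% ± 5.88. The exact two-sided permutation p was 0.1, the smallest that 3 against 3 libraries can give, and adjusted over the 21 isozyme shares tested in 11 families it was 0.7.

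The hexose phosphate steps showed 5 log2 fold changes above 0 and 1 below, none at p under 0.05. Hk2, the hexokinase that is inducible in muscle, measured 28.7, 38.6 and 33.2 CPM in WT and 39.9, 39.4 and 42.0 CPM in KO. The KO libraries were all above the WT libraries, KO 2 only barely above WT 2, and the log2 fold change was 0.27 ± 0.17 (edgeR adjusted p = 0.863). Hk1, the widely expressed hexokinase, was the larger part of the pair, with 80.5% ± 2.39 of their FPKM in WT and 80.7% ± 1.55 in KO. Its log2 fold change was 0.26 ± 0.23, which was 0.49 without WT replicate 2 and 0.07 without WT replicate 1. Gpi1, the glucose phosphate isomerase and the most abundant gene of these steps, measured 586, 470 and 497 CPM in WT and 655, 612 and 481 CPM in KO (log2 fold change 0.17 ± 0.19). Its groups overlapped.

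Phosphofructokinase, the committed step, was drawn mainly from Pfkl, the liver isozyme, at 57.8% ± 3.73 of the family's FPKM in WT and 60.1% ± 1.64 in KO. The muscle isozyme Pfkm measured 30.0, 34.4 and 24.8 CPM in WT and 31.2, 29.9 and 27.0 CPM in KO, with a log2 fold change of -0.02 ± 0.18 (95% interval -0.43 to 0.39). It held 20.2% ± 2.06 of the family in WT and 18.5% ± 0.668 in KO, and the platelet isozyme Pfkp 21.9% ± 2.86 and 21.5% ± 1.15. These shares rest on the listed lengths, 13401 bases for Pfkp where the principal transcript has 4145. With principal lengths Pfkm held 11.9% ± 1.29 in WT and 10.8% ± 0.366 in KO, and Pfkp 35.8% ± 3.93 and 35.0% ± 1.63. The annotated gene Pitrm1 overlaps Pfkp, so reads of this pair could be split between them.

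At the aldolase and triose steps, Aldoa, the muscle and red cell aldolase, measured 1342, 1136 and 1224 CPM in WT and 1654, 1544 and 1204 CPM in KO. KO 3 lay within the WT range, and the log2 fold change was 0.25 ± 0.20 (95% interval -0.20 to 0.70). The minor Aldoa locus had 0.413 to 1.43 CPM and a log2 fold change of -0.64 ± 0.52. This was -0.02 without WT replicate 2 and -0.97 without WT replicate 3. Tpi1, triose phosphate isomerase, measured 488 to 822 CPM in WT and 497 to 917 CPM in KO (log2 fold change 0.16 ± 0.28).

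Eno3 (ENSMUSG00000060600, chr11:70657202-70662513 of mm10), the muscle enolase, showed the lowest p-value of the set. It measured 150, 161 and 116 CPM in WT and 89.8, 78.9 and 52.0 CPM in KO. The KO libraries all lay below the WT libraries, KO 3 lowest of all. With a log2 fold change of -0.95 ± 0.23 (95% interval -1.47 to -0.43), lower in 3 of 3 KO libraries, its edgeR adjusted p was 0.396. Its unadjusted p was under 0.05 in 17 of 17 alternatives, with log2 fold changes from -1.11 to -0.75 and adjusted p from 0.00427 to 0.814. The adjusted p was 0.0380 with DESeq2 and 0.00427 without the filter on low counts.

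The other enolases did not follow. Eno1, the ubiquitous enolase, measured 2335, 1751 and 1801 CPM in WT and 2762, 2554 and 2008 CPM in KO, with a log2 fold change of 0.31 ± 0.22 and overlapping groups. Eno2, the neuronal enolase, measured 11.2 to 15.3 CPM in WT and 13.2 to 21.3 CPM in KO (log2 fold change 0.41 ± 0.23). As a share of the family's FPKM, Eno3 stood at 16.4%, 22.1% and 16.5% in WT and 9.07%, 8.65% and 7.36% in KO. All KO libraries were below all WT libraries, with means of 18.3% ± 3.25 and 8.36% ± 0.890. The share of Eno1 was 81.1% ± 3.19 in WT and 90.9% ± 0.943 in KO. For both shares the exact permutation p was 0.1, the smallest possible, and adjusted 0.7. With the length of the principal transcript in place of the listed length, the difference of the Eno3 share was -4.94 in place of -9.95 percentage points, because the listed Eno1 length of 5379 bases exceeds its principal transcript of 2027. With CPM in place of FPKM, which ignores length, it was -3.92 percentage points.

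**Figure D3:**
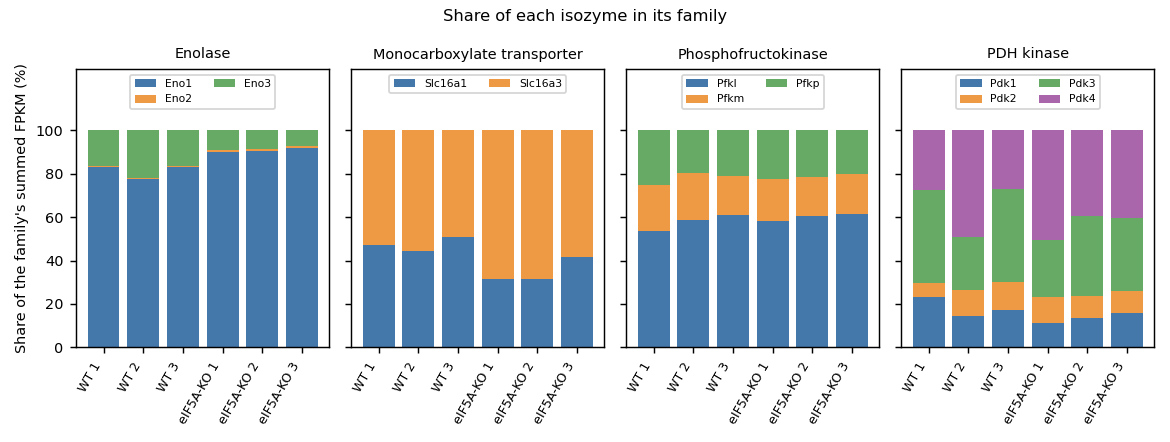
Stacked bars give the share of each isozyme in the summed FPKM of its family, in percent, for each library. The Eno3 part of enolase is 16.4% to 22.1% in the WT libraries and 7.36% to 9.07% in the KO libraries, and the Slc16a1 part of the transporters is 44.6% to 50.7% and 31.3% to 41.7%.

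Marker genes of cell types and states were read beside these results, at an unadjusted p under 0.05 that 2.74% of all genes tested passed as higher and 4.02% as lower. The lists were chosen with earlier results of these data known. Among all markers 1 passed the adjusted p, where 0.0204% of all genes tested did. It was the smooth muscle myosin Myh11 of the mural list, at 10.6 ± 0.281 CPM in WT and 30.6 ± 3.19 CPM in KO (log2 fold change 1.52 ± 0.17, edgeR adjusted p = 0.0486). Of 13 tested markers of myogenic differentiation, 4 (Myog, Mymk, Myh3 and Actc1) were lower in KO at an unadjusted p under 0.05 and 0 were higher. Their summed level over 16 genes was 376, 719 and 423 CPM in WT and 274, 357 and 428 CPM in KO, which overlapped, and Tnnc2 was at 0 counts. Of 8 markers of dividing cells, 5 were lower at an unadjusted p under 0.05, and their summed level was 1070 to 1423 CPM in WT and 649 to 875 CPM in KO. Of 7 mural (pericyte and smooth muscle) markers, 4 were higher, at 361 to 602 CPM in WT and 698 to 754 CPM in KO as a sum. Summed markers of satellite cells, fibroblasts, endothelium, macrophages and red cells overlapped between the groups. Among the satellite cell markers 7 of 8 had log2 fold changes below 0, and 1, Pax7 (-1.50), had an unadjusted p under 0.05. All 6 endothelial markers were above 0, with Emcn (0.51) at an unadjusted p under 0.05. Of the 7 fibroblast markers 1 was above 0, Col1a1 (0.72), which was higher at that threshold, and 6 were below 0. Of the 6 macrophage markers 4 were above 0 and 2 below, with Cd68 (0.84) higher at that threshold. No red cell marker reached it. The part of these cell types in the levels of Eno3 and Slc16a1 was not tested.

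The rest of the payoff phase gave no unadjusted p under 0.05 in the main edgeR fit, with the filter on low counts and without a replicate block. Gapdh had one in 4 of 17 alternatives, and Eno1 and Eno2 in 1 each. Pkm, pyruvate kinase of muscle and of dividing cells, measured 3161, 2577 and 2468 CPM in WT and 3403, 3067 and 2549 CPM in KO. The groups overlapped, with a log2 fold change of 0.14 ± 0.21 (95% interval -0.34 to 0.61). A gene-level count does not separate its splice forms. Pgk1, phosphoglycerate kinase, measured 1974, 1093 and 1004 CPM in WT and 1057, 1344 and 1080 CPM in KO, so that WT 1 alone stood apart. Its log2 fold change was -0.23 ± 0.28, and 0.15 without WT replicate 1. The muscle mutase Pgam2 measured 4.97, 7.15 and 4.01 CPM in WT and 4.40, 5.32 and 6.06 CPM in KO, with a log2 fold change of -0.03 ± 0.29. It made up 2.88% ± 1.01 of the mutase FPKM in WT and 2.64% ± 0.706 in KO, beside Pgam1.

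Gapdh varied most of all members, with 258, 15.5 and 102 CPM in WT and 293, 277 and 214 CPM in KO. The WT libraries differed among themselves by more than the groups did, and WT 1 lay within the KO range. The log2 fold change was 1.07 ± 0.71 (edgeR adjusted p = 0.875), and it was 0.54 without WT replicate 2 and 2.16 without WT replicate 1. Its adjusted p ranged from 0.000414 without the filter on low counts to 0.9998. The annotation holds 180 genes with a copy of at least 200 bases of Gapdh at 90% identity or more, and reads could be split between them. The summed counts of these copies were 1576, 1859 and 1535 in WT and 1969, 2028 and 1616 in KO, beside 3991, 292 and 1725 and 4792, 4681 and 3785 counts for Gapdh itself. In WT 2 the copies were within the range of the KO libraries while Gapdh was the lowest of all. Annotated copies were also found for Ldha (13), Pkm (9), Eno1 (7), Aldoa (6), Bnip3 (6), Pgk1 (4), Pgam1 (3), Gpi1 (2), Tpi1 (2), Ldhb (1) and Pfkfb2 (1). For these 11 genes the summed counts of the copies were at most 3.06% of the gene's own counts, reached for Eno1. Pfkp shares such a stretch with Pitrm1, which overlaps it, and the counts of Pitrm1 were 92.0% to 133% of those of Pfkp.

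Ldha, which turns pyruvate to lactate, measured 3117, 1535 and 1596 CPM in WT and 1940, 2442 and 1673 CPM in KO. WT 1 was the highest library and KO 2 the next. The log2 fold change was -0.05 ± 0.30 (95% interval -0.73 to 0.64), and 0.37 without WT replicate 1. Ldhb, the heart-type subunit that favours lactate use, made up 2.76% ± 0.569 of their summed FPKM in WT and 2.86% ± 0.311 in KO.

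The pyruvate dehydrogenase kinases, which block the entry of pyruvate to the citric acid cycle, showed 2 log2 fold changes above 0 and 2 below, none at p under 0.05. Pdk4, known from starvation and fatty acid use, had the highest mean FPKM of the family over all 6 libraries, although Pdk3 was above it in WT 1 and WT 3. This order depends on the listed lengths. With principal lengths Pdk3 held 36.27% of the family in WT and Pdk4 28.95%, and in KO 32.88% and 37.04%. Pdk4 measured 27.3, 59.2 and 22.2 CPM in WT and 56.3, 45.7 and 39.1 CPM in KO. WT 2 was the highest of all libraries while WT 1 and WT 3 were the lowest. Pdk4 had a log2 fold change of 0.37 ± 0.34, which was 0.93 without WT replicate 2 and 0.12 without WT replicate 3. Pdk1, the HIF-responsive kinase, measured 51.0, 38.1 and 31.3 CPM in WT and 28.0, 34.4 and 33.9 CPM in KO (log2 fold change -0.32 ± 0.21, edgeR adjusted p = 0.873). The log2 fold changes of Pdk2 and Pdk3 were 0.15 ± 0.29 and -0.03 ± 0.21.

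All 4 PFKFB genes, whose bifunctional enzymes set the level of fructose 2,6-bisphosphate and thereby the activity of phosphofructokinase, had log2 fold changes below 0, from -0.39 to -0.13, and none at p under 0.05. Pfkfb3, with strong kinase activity and the most abundant, measured 41.2, 54.8 and 48.0 CPM in WT and 37.8, 43.0 and 49.3 CPM in KO, which overlapped (log2 fold change -0.14 ± 0.18). Pfkfb4 measured 18.5, 15.5 and 15.7 CPM in WT and 15.5, 15.3 and 14.7 CPM in KO. Its groups did not overlap, but KO 1 lay within 0.1 CPM of WT 2, and the log2 fold change was -0.13 ± 0.17 (edgeR adjusted p = 0.948). Pfkfb1 and Pfkfb2 were scarce at 2.43 to 5.10 CPM.

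**Figure D4:**
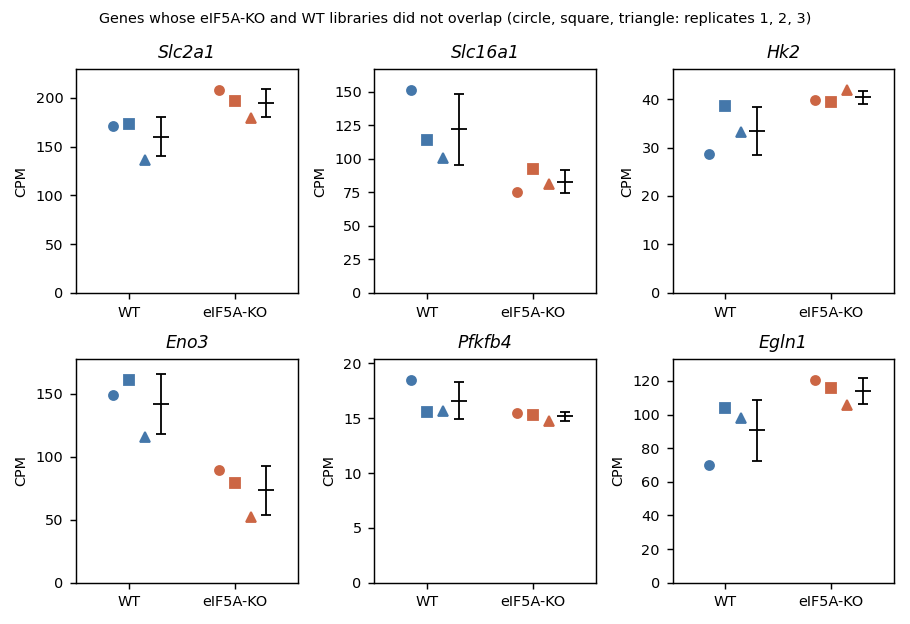
CPM per library is drawn for the 6 genes whose WT and KO libraries did not overlap, with the mean and SD of each group in black beside the points. The Eno3 means are 142 ± 23.7 and 73.6 ± 19.5 CPM, while for Pfkfb4 they are 16.6 ± 1.69 and 15.2 ± 0.392 CPM.

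In the oxygen-sensing arm, Hif1a itself, the regulated subunit of HIF-1, measured 237, 281 and 233 CPM in WT and 200, 229 and 304 CPM in KO. KO 1 was the lowest library and KO 3 the highest, so the KO libraries enclosed the WT range, with a log2 fold change of -0.04 ± 0.20 (95% interval -0.49 to 0.41). HIF-1α is controlled mainly as a protein, which was not measured here. Egln1 (PHD2), the main oxygen sensor, measured 69.8, 104 and 98.1 CPM in WT and 121, 116 and 106 CPM in KO. KO 3 lay just above WT 2, and the log2 fold change was 0.33 ± 0.19 (edgeR adjusted p = 0.827). Egln3 (PHD3), a hydroxylase that HIF itself induces, measured 46.8 to 68.2 CPM in WT and 45.5 to 60.1 CPM in KO (log2 fold change -0.06 ± 0.21).

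The other HIF-responsive genes overlapped in all 5 cases, with log2 fold changes from -0.12 to 0.26 and edgeR adjusted p-values of 0.946 or more. Ddit4 (REDD1), which restrains mTORC1, was the most abundant of them in FPKM and measured 157, 159 and 139 CPM in WT and 181, 150 and 167 CPM in KO (log2 fold change 0.13 ± 0.16). Vegfa, the angiogenic ligand, measured 102, 99.4 and 75.3 CPM in WT and 97.3, 90.4 and 108 CPM in KO (log2 fold change 0.10 ± 0.18, 95% interval -0.31 to 0.50). Bnip3, a mitophagy receptor, measured 89.97, 53.7 and 44.7 CPM in WT and 49.2, 67.1 and 56.6 CPM in KO. Its log2 fold change of -0.12 ± 0.27 was 0.24 without WT replicate 1. The values of Ero1l, an oxidase of the endoplasmic reticulum, and of Ankrd37 were -0.03 ± 0.18 and 0.26 ± 0.35 on the log2 scale.

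Some libraries stood high or low for many members at once. For 8 members (Slc16a3, Tpi1, Pgk1, Pgam1, Ldha, Ldhb, Pdk3 and Bnip3) the highest 2 libraries were WT 1 and KO 2, which is 20.5% of the rows tested, against 9.22% of all genes tested. These are the libraries with the highest shares of mitochondrially encoded counts, 5.75% and 3.50%, and the part of that share in these levels was not tested. For 9 members (Slc2a1, Gpi1, Pfkl, Pfkp, Aldoa, Gapdh, Eno1, Eno2 and Egln1) the highest 2 were KO 1 and KO 2, which is 23.1% against 11.3% of all genes. WT 3 was the lowest library for 14 members, 35.9% against 9.06% of all genes tested, and the highest for 0 against 8.01%. The SD over the WT libraries exceeded that over the KO libraries in 27 of 39 rows, or 69.2%, against 64.6% of all genes.

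**Figure D5:**
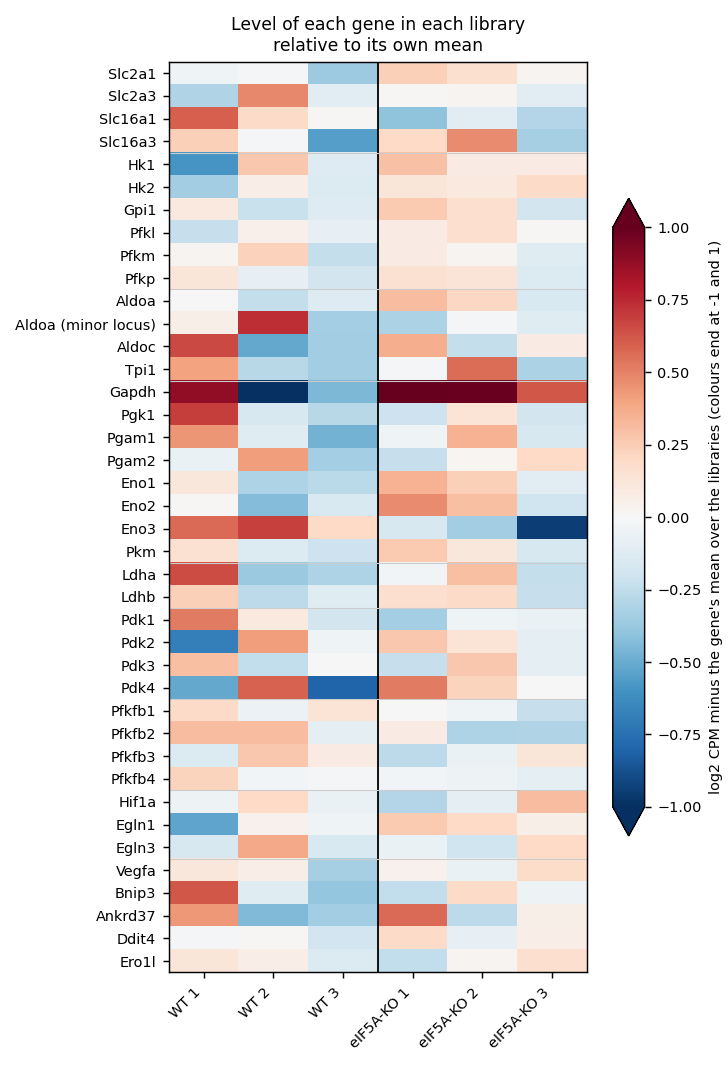
Colours give the log2 CPM of each row minus its own mean over the 6 libraries, with Aldoc included although it was not tested. WT 1 is high for Ldha, Pgk1 and Bnip3, WT 3 is low for many members with a median deviation of -0.15, and Gapdh reaches the ends of the colour scale.

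Beyond these members, 54 other genes of sugar metabolism and the HIF response were read, of which 48 were tested, with 30 log2 fold changes above 0, 18 below and a median of 0.11. Eif5a, described above as the check of the label, was counted among them. At an unadjusted p under 0.05 stood 1 gene higher and 1 lower in KO, where 2.74% and 4.02% of all genes did. Bhlhe40 (DEC1), a transcriptional repressor induced by HIF and by many other signals, measured 70.5, 88.7 and 83.4 CPM in WT and 151, 122 and 117 CPM in KO. Every KO library was above every WT library, with a log2 fold change of 0.68 ± 0.18 (edgeR adjusted p = 0.398). Tfrc, the transferrin receptor, measured 189, 176 and 167 CPM in WT and 100.3, 131 and 147 CPM in KO. Its KO libraries were all below the WT libraries (log2 fold change -0.49 ± 0.19, edgeR adjusted p = 0.639). The HIF partner Arnt, the HIF-2α gene Epas1 and Vhl, whose protein marks HIF for degradation, had log2 fold changes of -0.12 ± 0.19, 0.26 ± 0.28 and 0.17 ± 0.18, and were picked for these roles.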

How the data were processed

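Bulk RNA-seq of primary myoblasts, 3 libraries labelled WT and 3 labelled eIF5A-KO, was read from the tables that the authors deposited. Per the labels, total RNA was extracted with TRIzol, libraries were made with an NEBNext Ultra kit, and reads were mapped to mm10 with HISAT, as the submitters' processing notes give it. The first deposited table holds raw read counts per gene. The second deposited table holds FPKM of the authors, whose gene length equals the union of exons in GENCODE M21 for 39 of the 40 rows (not Pgam1). The strand setting of the counting is not given in the sources used here, so reads of overlapping genes cannot be told apart.

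The counts were tested with edgeR 4.0.16 (R 4.3.3, filterByExpr, TMM factors, glmQLFit with a prior count of 0.125, glmQLFTest) over all 14679 genes that passed the filter, with Benjamini-Hochberg adjustment, and the method was tested on simulated data. Standard errors and 95% intervals are on the log2 scale. DESeq2 1.42.0, limma 3.58.1 on log2(FPKM + 1) and log2(FPKM + 0.1), limma-voom, other scalings and filters, a replicate block and the omission of each library in turn were alternatives. The common biological coefficient of variation that edgeR estimated within groups over all genes tested was 0.239, and single genes can differ from it. Isozyme shares were compared by exact permutation tests. Copies were sought with blastn 2.17.0. Values in every library are given for members with an unadjusted p under 0.05 or groups apart, for the most abundant member of each role, and for Hif1a, Slc2a1, Ldha, Pkm, Vegfa, Pfkm, Pgam2 and Eno3. Gapdh, Pgk1, Eno1, Slc16a3, Pdk1 and Bnip3 were added after their values were seen. The members and gene lists were chosen with earlier results of these data known. Promoter windows come from RefSeq (GRCm38.p6), and none was used for Ero1l and Slc2a3.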

Additional observations from a re-analysis of the deposited data

How the results depend on the processing

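Of 17 alternatives, DESeq2 called 1 member at an adjusted p under 0.05 (Eno3, with 0.627% of all genes called) and the fit without a filter on low counts called 2 (Eno3 and Gapdh, with 0.924% of all genes called). The number higher in KO at an unadjusted p under 0.05 was 1, Gapdh, with limma-voom, without the filter and with the replicate block, and by the criterion of the study it was also 1 in each of these. Of all genes 2.47% to 2.74% and 0.552% to 0.668% were called so in these fits. With the replicate block the number lower stayed at 2 and that at an adjusted p under 0.05 at 0. Whether the replicate numbers pair the libraries is not given in the sources used here. The deviations of same-numbered libraries correlated at 0.103, -0.221 and 0.113, and those of unlike-numbered libraries at -0.312 to 0.339. With 3 libraries a group, such correlations cannot decide whether the libraries were paired. With each library left out in turn, the number at an adjusted p under 0.05 was 0 throughout. The number higher at an unadjusted p under 0.05 ranged from 0 to 2 (Gapdh and Eno1 without WT replicate 1, Hk1 and Pdk4 without WT replicate 2, Eno2 without KO replicate 3) and that lower from 1 to 2, where Slc16a1 was lost without KO replicate 1 and without KO replicate 3. Of all genes 1.23% to 4.72% were higher and 2.66% to 5.44% lower in these fits. By the criterion of the study 0 to 1 were higher (Gapdh without WT replicate 1) and 0 to 1 lower (Eno3 without WT replicate 3 or KO replicate 1), against 0.458% to 1.08% and 1.26% to 2.11% of all genes. Groups did not overlap upwards for 3 to 10 members, 10 without KO replicate 3 (25% of the rows, against 13.9% of all genes in the same fit) and 8 without WT replicate 1 (20% against 11.9%), and downwards for 3 to 6, with 6 without WT replicate 3 (15% against 10.6%). With fewer libraries more groups are apart by construction. The log2 fold change changed sign for Pgam2 (0.0045 and 0.001) and Ldha (0.03 and 0.03) with limma on FPKM + 0.1 and + 1, and for Ldha with limma-voom (0.01) and the replicate block (0.02). It changed sign in at least 1 omission for 16 members, with ranges of Slc2a3 -0.24 to 0.19, Pfkm -0.13 to 0.10, Tpi1 -0.11 to 0.45, Pgk1 -0.40 to 0.15, Pgam1 -0.12 to 0.36, Pgam2 -0.20 to 0.23, Ldha -0.22 to 0.37, Ldhb -0.01 to 0.25, Pdk2 -0.09 to 0.46, Pdk3 -0.18 to 0.13, Hif1a -0.22 to 0.10, Egln3 -0.18 to 0.14, Vegfa -0.03 to 0.18, Bnip3 -0.32 to 0.24, Ankrd37 -0.02 to 0.63, Ero1l -0.12 to 0.09. None of the 16 had an unadjusted p under 0.05. The difference of the isozyme share changed sign in an omission for 9 isozymes, with ranges in percentage points of Hk2 -1.32 to 1.05, Pfkp -1.6 to 1.14, Aldoc -0.0121 to 0.016, Pgam2 -0.737 to 0.274, Ldhb -0.219 to 0.313, Pdk2 -1.68 to 1.47, Pfkfb1 -0.882 to 0.274, Pfkfb3 -2.6 to 2.81, Pfkfb4 -1.22 to 2.92. The cause was not tested for any of these. The other 23 rows tested kept their direction in every alternative run. The size still moved for some of them in the omissions, such as Slc16a3 (0.03 to 0.42), Pdk1 (-0.47 to -0.10) and the minor Aldoa locus (-0.97 to -0.02). The minor Aldoa locus gave no value with at least 10 counts in every library. With 3 libraries a group, the median standard error of a member's log2 fold change was 0.21, which limits how small a difference could be called.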
